A study of Homo sapiens with 4 samples.

Results

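The 42 genes described here encode the machinery that copies DNA in S phase, from origin recognition to chromatin assembly behind the fork. They were chosen by gene symbol from a list of replication factors, and all 42 were found among the 57746 genes of the deposited table. They were measured in DLD1, a line of human colorectal cancer cells, and in 3 of its derivatives, with 1 RNA library per line. DLD1, the parent, carries the label epithelial. Soft agar colonies gave rise to SA and colonospheres to SPH, which are both labelled mesenchymal. METS, labelled epithelial, was taken from a metastasis that a xenograft had formed in the lung. All 4 lines were kept in McCoy's 5A medium with fetal bovine serum and antibiotics, and no added treatment is given. Each derived line is the outcome of a single named origin, so line and library cannot be told apart and no difference between lines could be checked in a repeat culture.

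Replication origins are licensed in G1 phase, when the origin recognition complex, CDC6 and CDT1 load the MCM2 to MCM7 ring onto DNA. In S phase CDC45 and the GINS complex turn that ring into the active helicase, primase and polymerase alpha start each strand, and polymerases delta and epsilon extend it behind the PCNA clamp. Many of these genes are switched on together before S phase by E2F transcription factors, and in the intestine they are used as readouts of dividing epithelial cells.

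Promoters are shown because control by E2F is a feature many of these genes are known to share. RefSeq promoter windows (GRCh38.p14, 250 bases before to 50 bases after the start of each gene) were found for 36 of the 42 genes. There was no entry for MCM4, MCM5, GINS4, POLD3, RPA2 and RPA3. The letters of an E2F site, TTTCCCGC, TTTCGCGC, TTTGCCGC or TTTGGCGC on either strand, were found in 17 of the 36 windows (47.2%). They were found in 6.94% of the 8111 expressed genes with a window and in 3.31% of all 35116 promoters of the same length. The stretches below run from 130 bases before to 20 bases after the start, 5′ to 3′ on the strand of the gene, with the matching letters in capitals. They are the 3 genes with the lowest METS to DLD1 ratio among those with a match here (CDT1, MCM2 and LIG1), the 3 with the highest (GINS1, POLE2 and RFC3), and MCM6. In MCM2 and MCM6 a pair of matches overlap.
CDT1: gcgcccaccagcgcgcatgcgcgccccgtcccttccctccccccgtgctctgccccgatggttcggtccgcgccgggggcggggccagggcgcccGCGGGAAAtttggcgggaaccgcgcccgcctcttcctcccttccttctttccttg
MCM2: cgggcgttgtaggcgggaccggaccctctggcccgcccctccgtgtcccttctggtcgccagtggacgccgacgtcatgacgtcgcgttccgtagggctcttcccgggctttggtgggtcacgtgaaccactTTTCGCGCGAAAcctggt
LIG1: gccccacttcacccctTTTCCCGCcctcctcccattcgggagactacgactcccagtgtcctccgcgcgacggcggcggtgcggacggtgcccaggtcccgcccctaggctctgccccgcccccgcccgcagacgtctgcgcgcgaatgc
GINS1: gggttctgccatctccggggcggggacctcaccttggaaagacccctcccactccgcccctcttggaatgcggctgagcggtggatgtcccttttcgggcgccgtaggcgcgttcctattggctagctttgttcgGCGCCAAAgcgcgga
POLE2: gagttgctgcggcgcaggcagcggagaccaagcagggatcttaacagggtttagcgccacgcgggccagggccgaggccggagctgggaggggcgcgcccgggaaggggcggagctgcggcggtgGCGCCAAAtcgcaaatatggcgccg
RFC3: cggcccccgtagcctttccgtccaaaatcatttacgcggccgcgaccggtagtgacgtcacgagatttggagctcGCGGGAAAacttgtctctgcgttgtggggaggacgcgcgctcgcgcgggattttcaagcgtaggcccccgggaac
MCM6: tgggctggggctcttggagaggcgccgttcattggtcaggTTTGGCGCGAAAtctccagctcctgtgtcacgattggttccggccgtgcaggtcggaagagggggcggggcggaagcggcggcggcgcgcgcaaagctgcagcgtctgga

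In GRCh38.p14 these stretches lie at chr16:88803659-88803808 on the plus strand (CDT1), chr3:127598281-127598430 on the plus strand (MCM2) and chr19:48170325-48170474 on the minus strand (LIG1). GINS1 lies at chr20:25407543-25407692 on the plus strand, POLE2 at chr14:49688195-49688344 on the minus strand, RFC3 at chr13:33818019-33818168 on the plus strand and MCM6 at chr2:135876424-135876573 on the minus strand. The expression values were made on hg19, and these coordinates were not used to read them. A match of letters is a description of the sequence and says nothing of binding. Among the genes shown, CDT1 has the lowest METS ratio and GINS1 the highest. ORC6, whose METS ratio is the highest of the 42, has no match in its window.

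Levels are given in RPKM, reads scaled to gene length and to library size, a scale on which genes can be compared with each other. All 42 genes passed the filter on low values (1 RPKM or more in 2 or more of the 4 libraries), which 11262 genes passed. In DLD1 they ran from 4.01 RPKM for POLE2 to 234 RPKM for PCNA, and PCNA was highest in all 4 lines. The summed level of the 42 genes was 1640 in DLD1, 1606 in SA, 1489 in SPH and 1309 RPKM in METS. SA thus held 97.9%, SPH 90.8% and METS 79.8% of the DLD1 sum. The lowest of the 4 values lay in METS for 33 genes, in SPH for 8 and in DLD1 for GINS1. Of all expressed genes, 39.4% had their lowest value in METS. The count of 33 fell to 28 with median-of-ratios factors and to 27 with a correction for GC content. For some genes METS and SPH were close, as for ORC1 (15.54 and 15.75 RPKM) and FEN1 (25.98 and 26.14 RPKM). The highest value lay in METS for 3 genes, ORC6, GINS1 and POLE2, against 23.8% of all expressed genes.

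**Figure D1:**
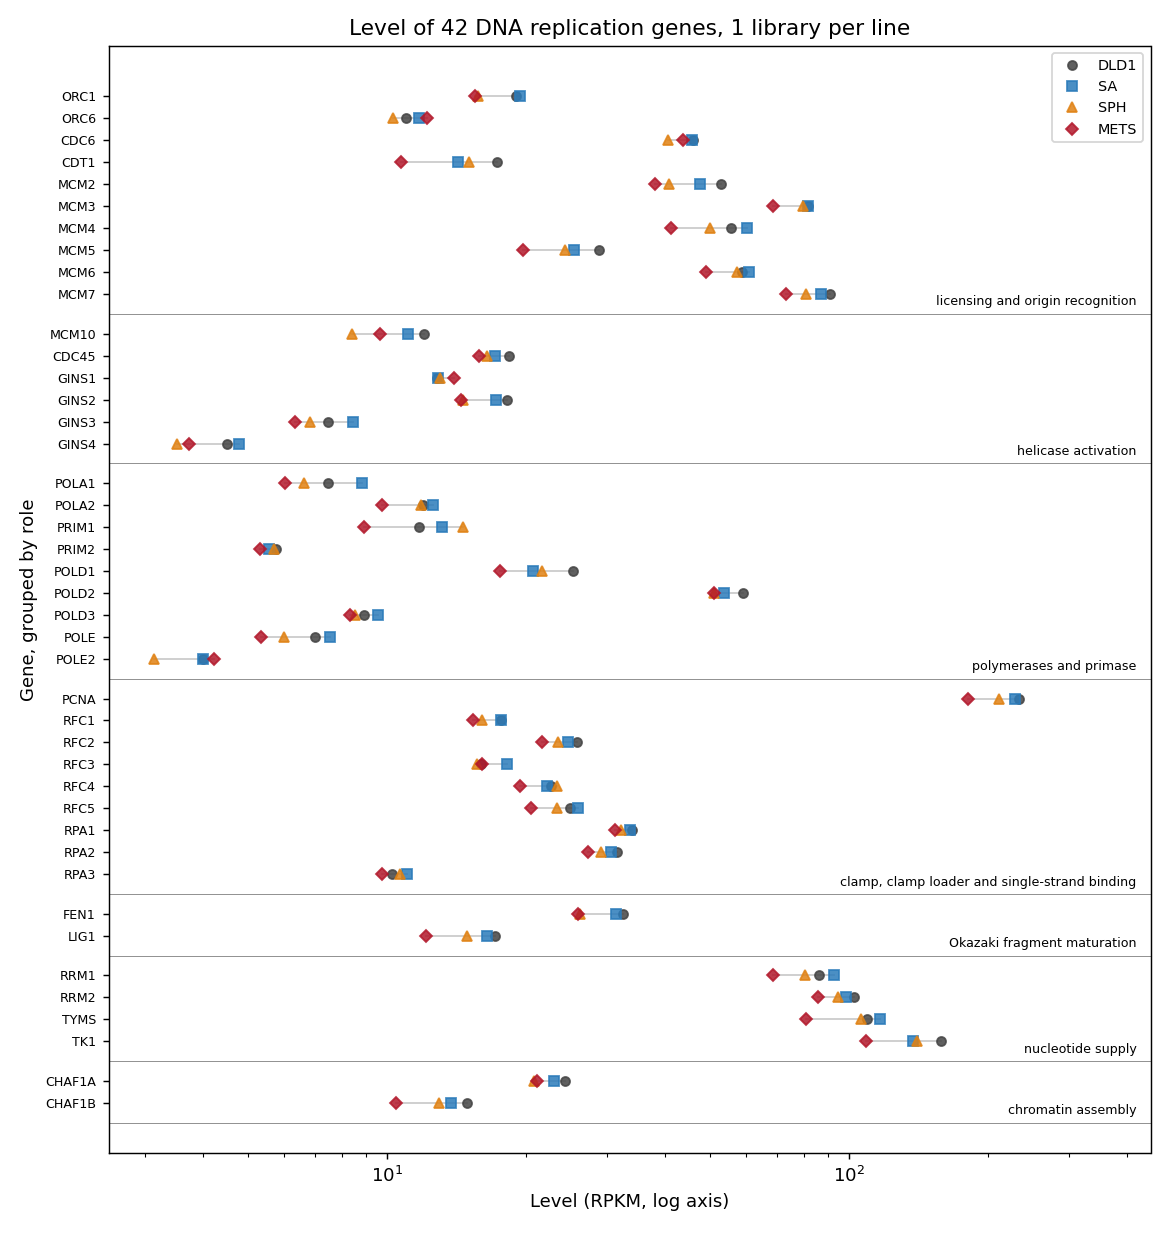
Level of each of the 42 genes (RPKM, log axis) in the 4 lines, 1 point per library, grouped by role. The red METS diamond is the leftmost point in 33 rows, and the rows are ordered by role, not by size.

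Ratios between lines are given as log2((RPKM + 1)/(RPKM + 1)), which understates differences of genes with low levels, and carry no p-value because each line has 1 library. METS stood below DLD1 for 38 of the 42 genes, with a median of -0.26, where 55.2% of all expressed genes stood lower with a median of -0.03. On the scale of RPKM + 1 it was at least 20% lower for 13 genes (31.0%, against 11.9% of all expressed genes). These were CDT1, TK1, MCM5, POLD1, CHAF1B, MCM2, LIG1, TYMS, MCM4, PCNA, PRIM1, POLE and RRM1. A difference of at least 1.5-fold lower was found for CDT1 alone (3.06% of all expressed genes), and none was at least 25% higher (6.87% of all expressed genes). The differences were therefore spread over many genes and small for each.

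SPH stood below DLD1 for 38 genes too, with a smaller median of -0.15, against 43.9% of all expressed genes with a median of 0.03. At least 20% lower were 2 genes, MCM10 and MCM2 (4.76%, against 6.34% of all expressed genes), and none was 25% higher (8.60%). SA stood below DLD1 for 24 genes, above for 17 and level for POLE2, with a median of -0.01, against 44.4% of all expressed genes lower. No gene was 20% lower in SA (5.38% of all expressed genes). With values rescaled without mitochondrial transcripts the SA median turned to 0.03, so no direction is given for SA. All 3 comparisons share the DLD1 library.

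**Figure D2:**
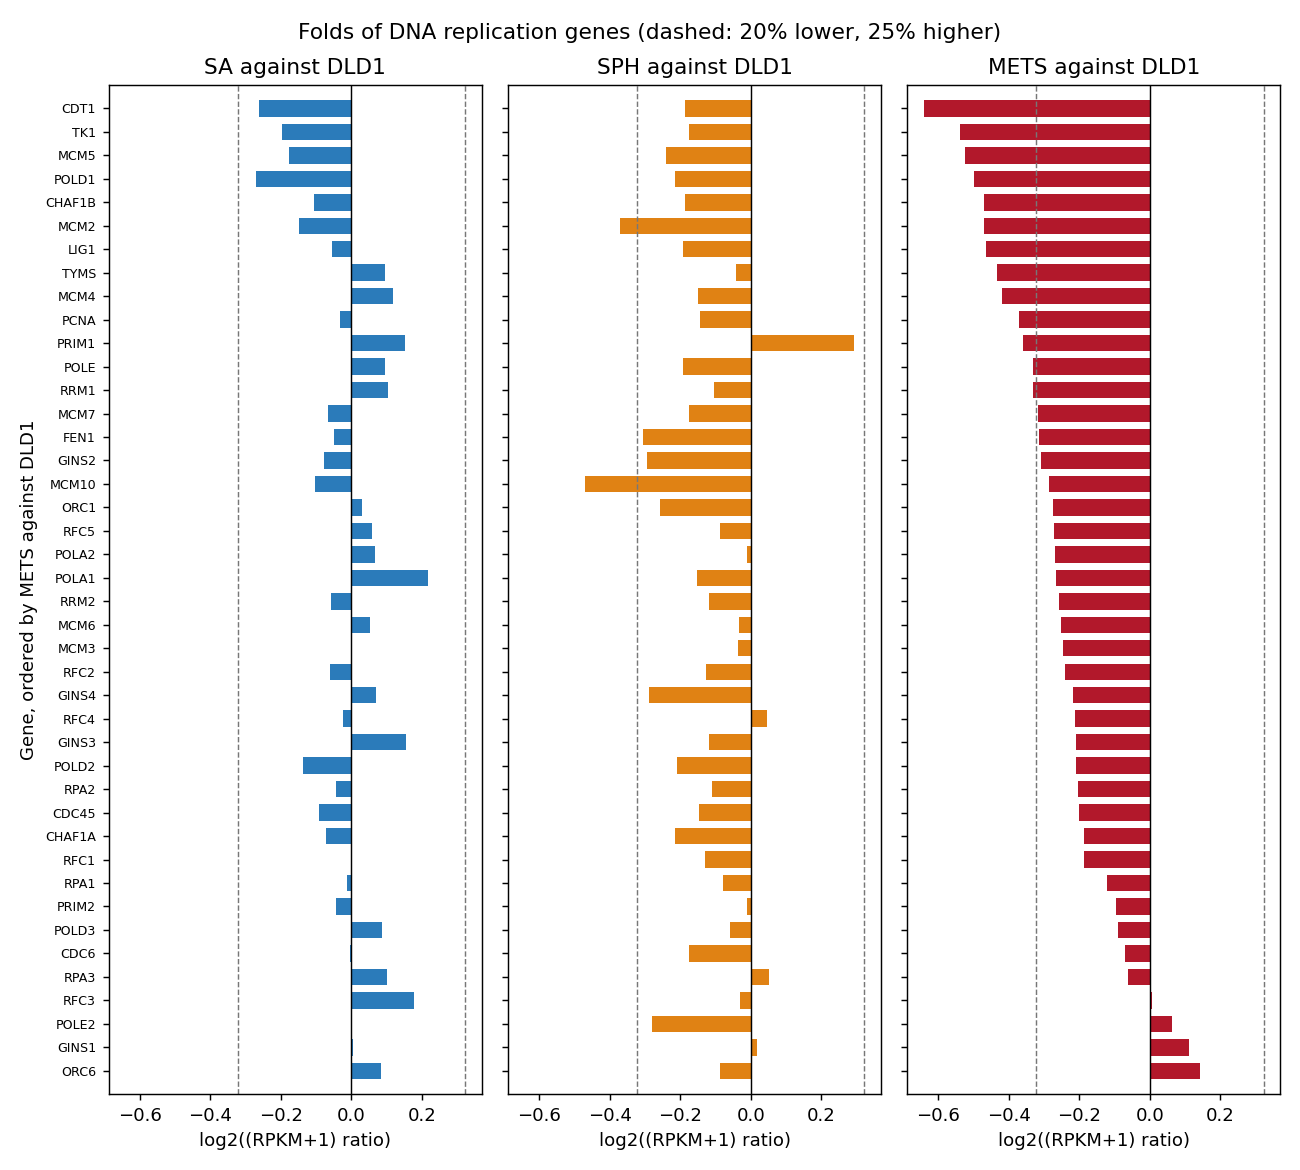
Log2 ratio of each gene against DLD1 for SA, SPH and METS, 1 bar per gene in the order of the METS ratio, with dashed lines at 20% lower and 25% higher. The METS bars point left for 38 genes and reach -0.64 at CDT1, the SPH bars point left for 38 genes but pass the dashed line only at MCM10 and MCM2, and the SA bars lie on both sides of 0.

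Origin licensing held some of the lowest METS to DLD1 ratios. CDT1, which helps load the MCM ring and is destroyed once S phase begins, stood at 17.3 in DLD1, 14.3 in SA, 15.1 in SPH and 10.8 RPKM in METS. METS lay apart from the other 3 lines, at 62.1% of DLD1 (log2 ratio -0.64). MCM2 stood at 53.0 in DLD1, 47.7 in SA, 40.8 in SPH and 38.0 RPKM in METS (-0.47), so that SPH lay closer to METS than to DLD1. MCM5 stood at 28.8 in DLD1, 25.4 in SA, 24.3 in SPH and 19.8 RPKM in METS (-0.52). Both encode subunits of the ring. MCM4, another subunit, stood at 55.6 in DLD1, 60.4 in SA, 50.04 in SPH and 41.3 RPKM in METS (-0.42).

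The 6 ring subunits, which assemble in equal numbers, kept the same order of level in all 4 lines, MCM7 highest, then MCM3, MCM6, MCM4, MCM2 and MCM5. The ratio of the highest to the lowest was 3.16, 3.43, 3.32 and 3.69 in DLD1, SA, SPH and METS. Their sum was 369 in DLD1, 363 in SA, 333 in SPH and 290 RPKM in METS, which was 78.6% of DLD1. MCM7 stood at 91.1 RPKM in DLD1 and 73.0 in METS (-0.32), MCM3 at 81.7 and 68.7 (-0.25) and MCM6 at 58.6 and 49.1 (-0.25). All 6 subunits were lowest in METS.

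CDC6 and ORC6, by contrast, were lowest in SPH. CDC6, the ATPase that joins the origin recognition complex before MCM loading, stood at 46.0 in DLD1, 45.9 in SA, 40.6 in SPH and 43.8 RPKM in METS, where METS lay between SPH and SA. ORC6, a small subunit of the origin recognition complex, stood at 11.01 in DLD1, 11.7 in SA, 10.3 in SPH and 12.2 RPKM in METS, its highest value (0.14). ORC1, the subunit whose level follows the cell cycle, stood at 19.0 in DLD1, 19.5 in SA, 15.8 in SPH and 15.5 RPKM in METS (-0.28), with SPH and METS close together below the other lines. Over the 10 licensing genes the median ratio to DLD1 was -0.30 for METS, -0.18 for SPH and -0.00 for SA.

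Among the 6 factors that activate the helicase the median ratio was -0.21 for METS and -0.22 for SPH, so that these lines lay level here. MCM10, which acts as the helicase is switched on, stood at 12.0 in DLD1, 11.1 in SA, 8.42 in SPH and 9.69 RPKM in METS. It had the lowest SPH ratio of the 42 genes (-0.47, against -0.29 for METS). CDC45 stood at 18.4 in DLD1, 17.2 in SA, 16.5 in SPH and 15.9 RPKM in METS (-0.20).

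The 4 GINS subunits work as a single complex, but the order of the lines differed between them. GINS1 stood at 12.9 in DLD1, 12.9 in SA, 13.0 in SPH and 13.97 RPKM in METS, lowest in DLD1 and highest in METS (0.11). GINS2 stood at 18.2 in DLD1, 17.2 in SA, 14.7 in SPH and 14.5 RPKM in METS (-0.31). GINS3 stood at 7.47 in DLD1, 8.44 in SA, 6.81 in SPH and 6.33 RPKM in METS (-0.21). GINS2 and GINS3 were thus lowest in METS. GINS4 stood at 4.51 in DLD1, 4.78 in SA, 3.51 in SPH and 3.74 RPKM in METS, lowest in SPH. Parts of these orders rest on small differences. The SPH to DLD1 log2 ratio of GINS1 was 0.02, with an error from read counts alone (SE) of 0.04. The METS to SPH log2 ratio was 0.07 for GINS4 and -0.015 for GINS2.

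The 9 polymerase and primase genes had a median ratio to DLD1 of -0.27 for METS, -0.15 for SPH and 0.07 for SA. POLD1, the catalytic subunit of polymerase delta, stood at 25.3 in DLD1, 20.8 in SA, 21.6 in SPH and 17.6 RPKM in METS (-0.50). Every derived line lay below DLD1 for POLD1, and its SA ratio (-0.27) was the lowest of the 42 genes. The accessory subunits POLD2 and POLD3 stood at 59.2 and 8.94 RPKM in DLD1 and at 51.1 and 8.33 in METS (-0.21 and -0.09). POLE, the catalytic subunit of polymerase epsilon, stood at 6.99 in DLD1, 7.54 in SA, 5.99 in SPH and 5.35 RPKM in METS (-0.33). Its partner POLE2 stood at 4.01 RPKM in DLD1 and SA, 3.13 in SPH and 4.23 in METS, lowest in SPH and highest in METS.

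PRIM1, the catalytic subunit of primase, was 1 of the 4 genes above DLD1 in SPH, with GINS1, RFC4 and RPA3. It stood at 11.8 in DLD1, 13.2 in SA, 14.6 in SPH and 8.93 RPKM in METS. Its ratio to DLD1 was 0.29 for SPH, the highest of the 42 genes, and -0.36 for METS. PRIM2, the large primase subunit, stood at 5.76 in DLD1, 5.56 in SA, 5.71 in SPH and 5.32 RPKM in METS, and so did not share this spread. PRIM2 has a near-identical copy in the genome, so its level is uncertain. POLA1, the catalytic subunit of polymerase alpha, stood at 7.45 in DLD1, 8.82 in SA, 6.61 in SPH and 6.02 RPKM in METS, with the highest SA ratio of the 42 genes (0.22). POLA2 stood at 12.0 RPKM in DLD1 and 9.77 in METS (-0.27), and 35.1% of its exon bases overlap another annotated gene. That share is 22.7% for MCM2, 21.2% for GINS4, 20.2% for RRM2 and 14.9% for PRIM1.

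PCNA, the sliding clamp that holds polymerases on DNA, stood at 234 in DLD1, 229 in SA, 212 in SPH and 181 RPKM in METS. METS was thus at 77.2% of DLD1 (-0.37) and lay below all other lines. The 5 subunits of the clamp loader, RFC1 to RFC5, had METS ratios between -0.27 for RFC5 and 0.01 for RFC3. RFC5 stood at 24.9 in DLD1, 26.0 in SA, 23.4 in SPH and 20.5 RPKM in METS. RFC3 stood at 16.0 in DLD1, 18.2 in SA, 15.7 in SPH and 16.1 RPKM in METS, so that METS and DLD1 lay level and SA apart above. RFC4 was highest in SPH, at 23.4 RPKM against 22.6 in DLD1 and 19.4 in METS.

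The subunits of RPA, which coats single-stranded DNA, were all lowest in METS, by differing amounts. RPA1 stood at 34.0 in DLD1, 33.7 in SA, 32.1 in SPH and 31.1 RPKM in METS (-0.12). RPA2 stood at 31.5 in DLD1 and 27.2 RPKM in METS (-0.205), and RPA3 had a METS ratio of -0.06. Over all 9 genes of the clamp, clamp loader and RPA the median ratio was -0.21 for METS and -0.09 for SPH.

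Behind the fork, LIG1, the ligase that seals Okazaki fragments, stood at 17.2 in DLD1, 16.5 in SA, 14.9 in SPH and 12.2 RPKM in METS (-0.46). FEN1, the nuclease that trims their flaps, stood at 32.5 in DLD1, 31.4 in SA, 26.1 in SPH and 26.0 RPKM in METS, with SPH and METS level (-0.31 for each). The chaperone CAF-1 places histones on new DNA. Its subunit CHAF1B stood at 14.9 in DLD1, 13.8 in SA, 13.0 in SPH and 10.5 RPKM in METS (-0.47). CHAF1A stood at 24.3 in DLD1, 23.0 in SA, 20.8 in SPH and 21.2 RPKM in METS (-0.19), so the METS difference was smaller for that subunit.

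The 4 genes of nucleotide supply had a median METS ratio of -0.38 and included some of the highest levels. TK1, the thymidine kinase of dividing cells, stood at 158 in DLD1, 138 in SA, 140.3 in SPH and 109 RPKM in METS (-0.54). TYMS, which makes thymidylate, stood at 109 in DLD1, 117 in SA, 106 in SPH and 80.8 RPKM in METS (-0.43). METS lay below the other 3 lines for both genes, and SA lay highest for TYMS and lowest of the rest for TK1. Of the TYMS exon bases 39.1% overlap ENOSF1, and with the use of strand not stated, reads of overlapping genes cannot be told apart. RRM1 and RRM2, the subunits of ribonucleotide reductase, stood at 86.4 and 102.9 RPKM in DLD1, 92.9 and 98.7 in SA, 80.4 and 94.6 in SPH, and 68.5 and 85.9 in METS (-0.33 and -0.26). Pseudogenes of PCNA, RRM2 and TYMS may take or give reads.

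The derived lines were also compared with each other. METS stood below SA for 39 of the 42 genes (92.9%, against 59.4% of all expressed genes). It was at least 20% lower for 15 (35.7%, against 12.5% of all expressed genes), led by MCM4 (-0.54), TYMS (-0.53) and PRIM1 (-0.51). That count was 8 with a pseudocount of 5, with median-of-ratios scaling or with a correction for GC content. METS stood below SPH for 33 genes (78.6%, against 58.9% of all expressed genes) with a median of -0.12. It was at least 20% lower for 4, PRIM1, CDT1, TYMS and TK1 (9.52%, against 16.0% of all expressed genes). With median-of-ratios factors 28 stood lower with a median of -0.06, and with the correction for GC content 27 with a median of -0.07 (51.2% and 50.1% of all genes). POLE2 was at least 25% higher in METS than in SPH (8.13% of all expressed genes). SPH stood below SA for 35 genes (83.3%, against 48.6% of all expressed genes) with a median of -0.12. POLA1, MCM10 and GINS4 were at least 20% lower (7.14%, against 3.61% of all expressed genes). The lines sharing the mesenchymal label thus differed from each other by a median close to that of SPH against DLD1.

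Across lines, 2 tests were possible, both with limma-trend on log2(RPKM + 1) over all 11262 genes. Their p-values measure the spread between lines, not between cultures of a line. For METS against the other 3 lines, with METS assumed to vary as they do among themselves, none of the 42 genes passed an adjusted p of 0.05, while 0.657% of all expressed genes did. The lowest was TYMS, with a log2 difference of -0.45 (SE 0.11) and an adjusted p of 0.154 in limma-trend. At an unadjusted p under 0.05, 13 of the 42 genes were found, all lower in METS (31.0%), against 14.7% of all expressed genes. That number was 7 without SA (16.7%, against 10.3%) and 8 with median-of-ratios factors (19.0%, against 14.3%). For the mesenchymal against the epithelial lines none passed in limma-trend either, while 0.355% of all expressed genes did. PRIM1 alone had an unadjusted p under 0.05 there (0.40 higher, SE 0.15, adjusted p = 0.544 in limma-trend), against 8.65% of all expressed genes.

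Neighbouring gene lists were set beside the 42 genes. Of 49 other replication genes expressed, 34 stood lower in METS than in DLD1, with a median of -0.10. Of all expressed genes 55.2% stood lower there, with a median of -0.03. The maintenance methyltransferase DNMT1 stood at 33.7 in DLD1, 33.2 in SA, 30.5 in SPH and 22.6 RPKM in METS (-0.56). TICRR, which helps origins to fire, stood at 4.47 in DLD1, 4.20 in SA, 3.45 in SPH and 2.72 RPKM in METS (-0.56). RNASEH2A and RNASEH2C, subunits of the nuclease that removes ribonucleotides, had METS ratios of -0.53 and -0.51. The 18 genes of the E2F and RB family had a median METS ratio of -0.02, with 10 lower and 8 higher and none 20% lower or 25% higher.

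Most of the 37 mitosis genes stood below DLD1 in METS but not in SPH. In METS 32 of them stood lower with a median of -0.29, close to that of the replication genes, against 55.2% of all expressed genes. In SPH 13 stood lower and 24 higher, with a median of 0.05, while the replication genes had -0.15. The SPH values of the mitosis genes were near those of all expressed genes, of which 43.9% stood lower with a median of 0.03. NUSAP1, a spindle protein, stood at 45.7 in DLD1, 45.4 in SA, 48.8 in SPH and 21.4 RPKM in METS (-1.06). NUSAP1 passed the limma-trend test of METS against the other 3 lines (adjusted p = 0.027), as the 1 mitosis gene that did. Over the alternatives its adjusted p in limma-trend ran from 0.0019 to 0.251, and the call was lost without SA (0.251) and with no filter on low values (0.166). FOXM1, which drives transcription of mitosis genes, stood at 39.2 in DLD1, 38.8 in SA, 34.9 in SPH and 24.8 RPKM in METS (-0.64). In libraries made from many cells, fewer cycling cells and less RNA per cell cannot be told apart. Among 16 genes of G1/S control the median METS ratio was -0.04, and CDKN1C, an inhibitor of cyclin-dependent kinases, stood at 2.27 in DLD1, 2.46 in SA, 2.91 in SPH and 13.1 RPKM in METS (2.11). CDKN1C was the 1 gene of that list past the same limma-trend test (adjusted p = 0.00982). Its call too was lost in limma-trend without SA (adjusted p = 0.2) and with no filter (0.178), over a range from 5.2e-05 to 0.2. CCND1, cyclin D1, stood at 150.4 RPKM in DLD1 and 212 in METS, while the inhibitor CDKN2C stood at 3.24 and 1.52. The part of the mitosis and G1/S genes in the replication result was not tested. Reference genes had a median METS ratio of 0.05 over 15 genes, with 7 lower and 8 higher, and translesion and repair polymerases -0.07 over 13. The reference genes were not all level. At least 20% lower were 2 of them, GUSB (-0.47) and B2M (-0.34), and 0 were at least 25% higher. GAPDH had a METS ratio of -0.28 and POLR2A of 0.22.

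**Figure D3:**
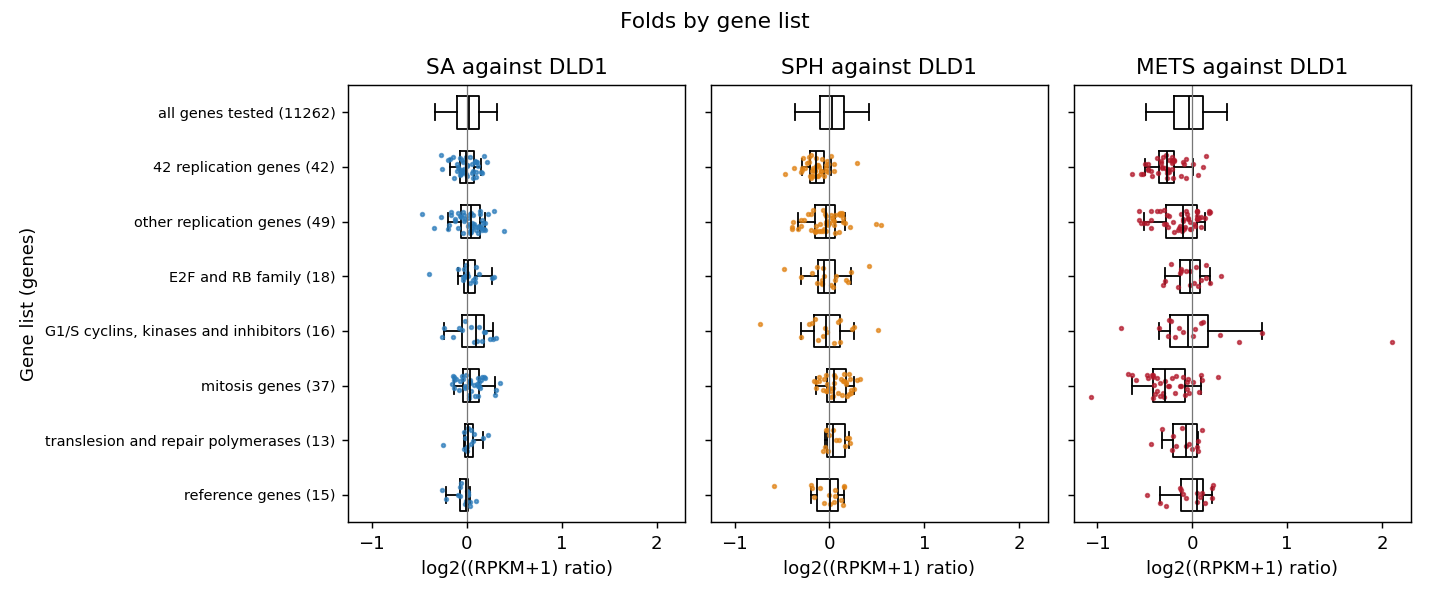
Log2 ratio against DLD1 for all expressed genes (box only) and 7 gene lists (box and 1 point per gene). Boxes run from the lower to the upper quartile with the median, and whiskers from 5% to 95% of genes. The boxes of the 42 replication genes and of the mitosis genes lie below 0 in METS (medians -0.26 and -0.29), while in SPH the replication box lies below 0 and the mitosis median is 0.05; the METS point at 2.11 is CDKN1C.

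The ratios of the 42 genes moved with the GC content of their transcripts, which in RNA sequencing also affects how well fragments are recovered. Over the 42 genes Pearson's r between GC content and log2 ratio to DLD1 was -0.61 for METS, -0.71 for SA and -0.40 for SPH (Spearman's rho -0.52, -0.64 and -0.52). These describe 42 genes of the same 4 libraries and share the DLD1 values. Over 10188 expressed genes with a GC content r was -0.30, -0.30 and -0.08. CDT1, POLD1 and TK1, with 64.9%, 65.0% and 62.8% GC, were 3 of the 4 genes with the lowest METS ratios, and RFC3, with 39.1%, was level with DLD1. The 14 genes with the lowest GC content, from 39.1% to 45.3%, had a median METS ratio of -0.23, with 11 of 14 lower. The 14 in the middle had -0.22, with 13 lower, and the 14 with the highest GC content -0.32, with all 14 lower. The same counts by GC content were not made over all expressed genes. A correction for GC content was chosen after the values were seen. After it METS stood below DLD1 for 39 of the 42 genes with a median of -0.22, against 50.1% of all 10188 genes. SPH stood below DLD1 for 38 with a median of -0.16, against 50.3% of all 10188 genes. The corrected METS ratio was -0.46 for CDT1, -0.32 for POLD1 and -0.21 for POLE. Beyond these values the part of GC content in the result was not tested.

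**Figure D4:**
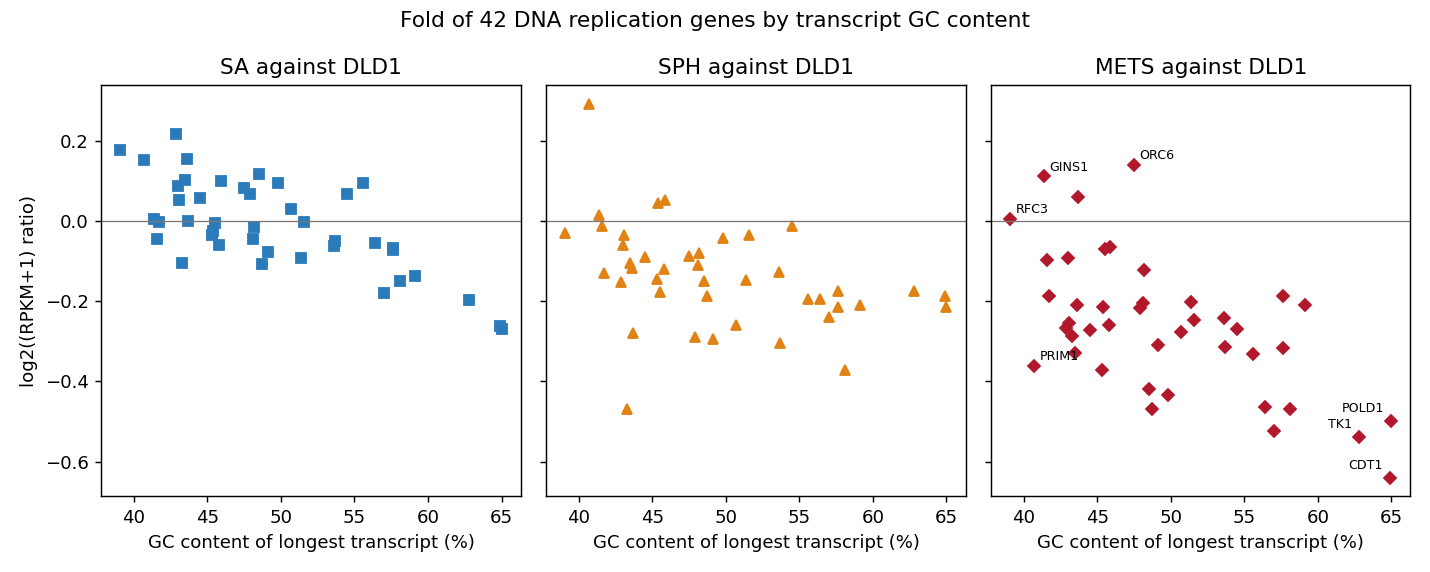
Log2 ratio against DLD1 of each of the 42 genes by the GC content (%) of its longest transcript, in SA, SPH and METS, 1 point per gene. Points fall to the right in all 3 panels (r = -0.71, -0.40 and -0.61), and in METS 38 of the 42 points lie below 0.

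Ratios were alike with and without the E2F letters shown above. The 17 genes with a match had a median METS ratio of -0.27 and the 19 without one -0.26, and for SPH the medians were -0.15 and -0.13. The letters were held by 15 of 40 other replication genes with a window and by 3 of 29 mitosis genes. The letters CCAAT were found in 22 of the 36 windows (61.1%, against 43.8% of expressed genes and 34.6% of all promoters). The letters TTTGAA, the core of the CHR element of mitosis genes, were found in 1 of the 36 (2.78%, against 13.2% of expressed genes and 15.2% of all promoters), while 21 of the 29 mitosis genes held them. Matches were sought on both strands and counted whether or not they overlapped another motif.

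Depth and identity of the libraries were checked from the values. A gene of 1 kb at 1 RPKM was estimated to hold between 48.5 and 53.8 reads per library, which gave between 297 and 20332 reads for each of the 42 genes and a counting error (SE) of 0.02 to 0.10 on the METS to DLD1 log2 ratio. The METS ratio lay beyond 2 such errors for 37 genes, 35 of them lower, and the SPH ratio for 32, 31 of them lower. The share of all expressed genes beyond 2 such errors was not computed, so these counts do not set the 42 genes apart. They cover counting error and not the spread between cultures. Of 10 colorectal epithelial markers 8 reached 1 RPKM, with EPCAM between 212 and 263 RPKM, while CDX1 and LGALS4 stayed under it. The summed level of that list was 2200.2 in DLD1, 1637 in SA, 1774 in SPH and 2797 RPKM in METS. KRT8 and KRT18 made up most of it, at 1084 and 865 RPKM in METS against 817 and 680 in DLD1. In METS 5 of the expressed genes of that list stood above DLD1. The other 3, CDH1, CDX2 and CDH17, stood below it, and CDX2 and CDH17 were lowest in METS of all 4 lines. The 10 stromal markers summed to between 0.40 and 0.98 RPKM, with DCN, PDGFRA and THY1 listed at 0 in every line, and 5 endothelial markers to between 0.37 and 0.57, with CDH5 and KDR at 0. Blood and immune markers summed to between 0.81 and 1.76 RPKM, with PTPRC, CD3E, MS4A1 and HBB at 0. CD14 was the 1 immune marker to reach 1 RPKM, at 1.36 in METS and 0.89 in DLD1. The 6 lung epithelial markers summed to between 1.48 and 1.88 RPKM, and 2 of them reached 1 RPKM. AGER stood at 1.03 in DLD1, 1.29 in SPH and 0.87 in METS, and NKX2-1 at 0.57 in DLD1 and 1.0 in METS. Mitochondrial transcripts took between 25.5% and 26.6% of the summed values.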

How the data were processed

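The authors sequenced total RNA from 4 cell lines, with 1 library each. Values were deposited as 1 table of RPKM, a unit read from the values, because they are not whole and scale with gene length. Reads were placed on hg19, per the submitters' processing notes. What aligner, counting tool and annotation were used, and whether strand was, is not given in the sources used here. All 42 genes and the gene lists were chosen with earlier results of these data known.

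From the table were computed ratios of RPKM + 1 and counts at least 20% lower, 25% higher or 1.5-fold lower, beside the same over the 11262 genes that reached 1 RPKM in 2 or more libraries. Limma-trend (limma 3.58.1, R 4.3.3) with Benjamini-Hochberg adjustment was checked on simulated data. Lines were grouped by label. GC content, gene length and overlap came from GENCODE 29, promoters from RefSeq (GRCh38.p14). Depth was estimated from the step of the low values. Full values are given for at least 4 genes of each role (all, where a role has fewer), and up to 4 genes of other lists were picked by the size of the METS to DLD1 ratio. Not all genes picked from other lists are named in the results. CDK6 (0.73) and ESPL1 (-0.68) were left out there, though their ratios were larger in size than those of CCND1 (0.50) and FOXM1 (-0.64). Alternatives were other pseudocounts (0.1 and 5), filters, scalings and fold rules, limma without trend, leaving out a library, and a lowess correction for GC content (span 0.3) chosen after seeing the data. Software was Python 3.11.15, pandas 2.3.3 and statsmodels 0.14.6.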

Additional observations from a re-analysis of the deposited data

How the results depend on the processing

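Each line has 1 library, so no spread between cultures is known. No paired analysis was possible because no line has a numbered replicate. No direction of a pair median reversed for METS or SPH against DLD1 under the alternatives run, while the SA median of -0.01 became 0.03 when rescaled without mitochondrial genes. The METS to DLD1 median of the 42 genes ran from -0.21 to -0.27, with 37 to 39 genes lower and 10 to 15 at least 20% lower, where the share of all genes ran from 4.76% to 16.0%. Under a rule of 2-fold every pair count was 0. With a pseudocount of 0.1 the count at least 20% lower was 4 for SPH against DLD1 and 5 for SPH against SA. With a pseudocount of 5 it was 8 for METS against SA and 0 for SPH against SA. It was 8 for METS against SA with median-of-ratios factors and 8 with the GC correction, which also gave 2 for METS against SPH, and 5 for SPH against SA when rescaled without mitochondrial genes. In limma-trend 0 of the 42 genes passed under the alternatives run, with any library left out of the class test and DLD1, SA or SPH left out of the METS test (0 to 0), with the smallest adjusted p between 0.08 and 0.404 for METS and between 0.08 and 1.0 for the classes. Over all genes the class test called 40 in the main setting, 26 with a pseudocount of 0.1, 5 with a minimum of 5 RPKM and 0 of 24097 with no filter (2208 at an unadjusted p under 0.05). Without SA, SPH, METS or DLD1 it called 5, 6, 27 and 305. The METS test called 74 in the main setting, 117 with a minimum of 5 RPKM, 49 with the GC correction, 22 in limma without trend and 0 with no filter (2857 unadjusted). Without SA it called 0 (1164 unadjusted), and without DLD1 or SPH 305 each. Without DLD1 both tests are the same fit, METS against SA and SPH. The cause of these shifts was not tested, other than that leaving out a library leaves fewer samples.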
